A study of Oryza sativa with 12 samples.

Results

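The response of the spikelet transcriptome of the rice (Oryza sativa) cultivar BR-IRGA 409 to heat at flowering was described across all genes. It rested on 6 of the 12 libraries of the series, those whose titles name this cultivar: 3 heat libraries, from plants held at 38 °C during the daytime (7 h on each of 3 days), and 3 control libraries, from plants held at 29 °C over the same hours and days. Each library came from 2 plants. Both groups shared the cultivar, described in the labels as heat tolerant, the anthesis stage and the tissue, spikelets of the middle part of the panicle. The libraries held bulk RNA of whole spikelets, in which fewer cells of a type and less RNA per cell cannot be told apart. Markers of the tissue were not checked, because the files list 57174 gene IDs without names and 0 of them matched the table of rice genes used here.

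Anthesis is the stage at which the rice floret opens, the anthers shed pollen and the ovary is fertilised. It is known as the stage at which rice is most easily harmed by high temperature, since pollen shed and pollen germination fail and spikelets stay empty. Plant cells are known to answer heat with heat shock transcription factors, which raise chaperones that keep proteins folded, while many genes of growth and metabolism are turned down. Which of the genes below belong to these groups was not tested, as the IDs carry no names.

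Sequencing depth, as counts assigned to genes, was 39.0, 45.8 and 75.4 M (M, 1000000 counts) in heat libraries 1 to 3, against 7.08, 15.0 and 8.08 M in control libraries 1 to 3. The shallowest heat library thus exceeded the deepest control library, the ratio of the mean depths was 5.32, and depth and temperature cannot be told apart by design. Several comparisons that depth could touch were therefore repeated with every library thinned at random to 7.08 M. Not repeated were principal components, coefficients of variation, the order of libraries, shifts between levels, and calls with libraries left out. Between 7.16% and 7.84% of the reads of the heat libraries fell outside genes, against 6.04%, 10.3% and 6.88% in control libraries 1 to 3, so control 2 stood above the other libraries in this share. No 2 libraries held identical counts.

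At 38 °C, 22.3% of the genes tested changed in level. Of 22420 genes with enough counts, 5001 were called, with an adjusted p below 0.05 in edgeR's quasi-likelihood test. Of these, 2858 genes were higher and 2143 were lower at 38 °C, 12.7% and 9.56% of the genes tested. Higher genes thus made up 57.1% of the calls. The log2 fold change of the genes that rose had a median of 1.08 and an upper quartile of 1.85. That of the genes that fell had a median of −0.82, and its lower quartile was −1.32. Over all genes tested the median was −0.0027. The scaling takes most genes as unchanged, so a median near 0 cannot show whether there was a net shift. With upper-quartile scaling the median was −0.048. All 3 heat libraries lay above all 3 control libraries in 2854 of the genes that rose, against 22.7% of all genes tested, and below them in 2139 of the genes that fell, against 20.6% of all genes tested. Without regard to direction, 43.3% of all genes tested showed no overlap.

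**Figure D1:**
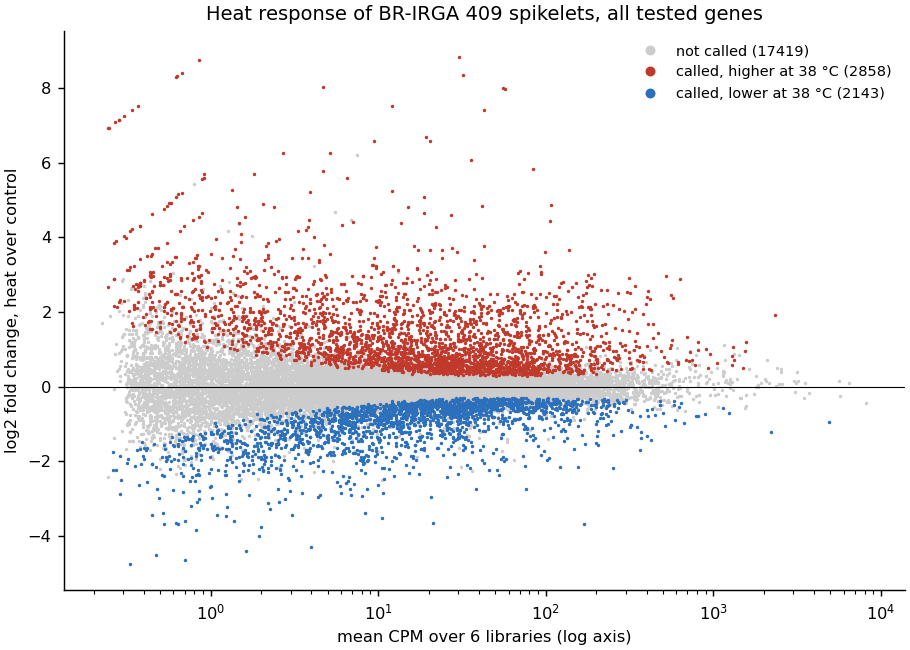
Log2 fold change of heat over control (vertical axis) against mean level in CPM, counts per 1000000 on the scaled library size, over 6 libraries (horizontal axis, log scale), with 1 point for each of 22420 tested genes. Red points are the 2858 genes called higher and blue points the 2143 called lower at 38 °C, and the red points reach farther from 0 than the blue points.

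The number of calls depended on the libraries and on the model more than its direction did. It was 2857 without control 1, 2612 without control 3 and 2470 without heat 3, and a model of all 12 libraries of both cultivars, with 1 mean per group, called 2646 (11.9% of 22321 genes). A total of 1998 genes were called in the same direction with every one of the 6 libraries left out in turn. These were 1372 higher genes (48.0% of those that rose) and 626 lower genes (29.2% of those that fell). At equal depth 3928 of 19479 genes were called (20.2%), 2323 higher and 1605 lower, and 3656 of them were among the 5001, all in the same direction.

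The excess of higher genes lay in the large changes. Among called genes that changed by less than 1.5-fold, 536 were higher and 630 lower, and between 1.5-fold and 2-fold the numbers were 772 and 689. Between 2-fold and 4-fold, 930 genes were higher and 663 lower. Between 4-fold and 10-fold, 492 were higher and 139 lower, 3.54 times as many. Beyond 10-fold, 128 were higher and 22 lower, 5.82 times as many.

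**Figure D2:**
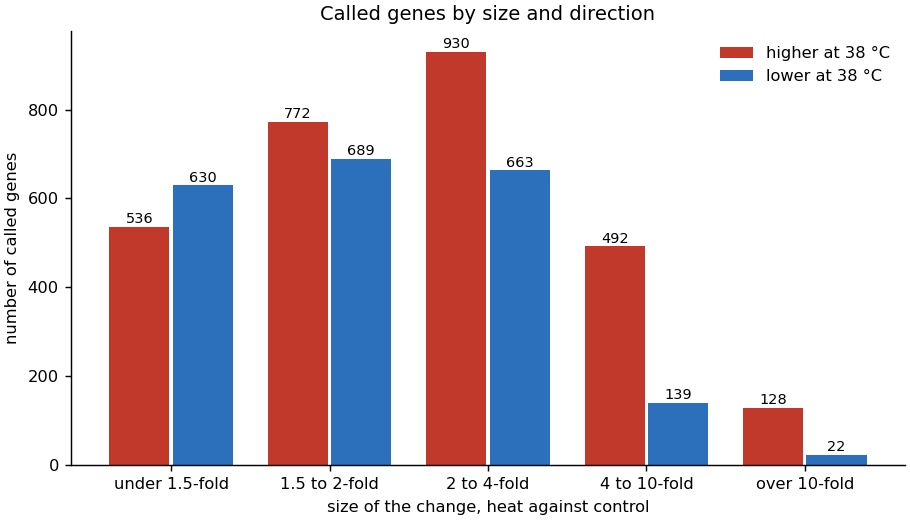
Number of called genes (vertical axis) by size of the change between heat and control (horizontal axis), red for genes higher and blue for genes lower at 38 °C. Lower genes outnumber higher genes under 1.5-fold (630 against 536), and higher genes outnumber lower genes in each larger class, up to 128 against 22 beyond 10-fold.

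Of the called genes, 2374 (10.6% of those tested) changed by 2-fold or more, 1550 higher and 824 lower. This excess kept its direction at equal depth, with 1249 genes higher and 615 lower by at least 2-fold, 433 and 112 by at least 4-fold, and 72 and 7 by at least 10-fold. Over calls of any size it depended on scaling: by upper-quartile scaling 2582 genes were higher and 2555 lower, while 1442 of the higher and 905 of the lower genes changed by 2-fold or more. Of the 128 genes that rose over 10-fold, 12 had 0 counts in all control libraries, so their fitted fold is no bound. Taken at 3 counts over the control group, 4 of these 12 rose by at least 10-fold, and 120 genes did in all. No called lower gene had 0 counts in all heat libraries.

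Few genes passed through the whole range of levels. Of the genes that rose, 460 had a control mean below 1 CPM, and 335 of these reached 1 CPM or more in heat, while 14 reached 10 CPM. At the other end, 1545 of the genes that rose already stood at 10 CPM or more in control libraries, and 196 at 100 CPM or more. The steepest rise into high abundance, from below 10 CPM in control to 100 CPM or more in heat, was made by 5 genes. Their heat means were 110 to 207 CPM and their control means 0.515 to 9.58 CPM, with log2 fold changes of 4.43 to 7.99. In the other direction 264 of the genes that fell had a heat mean below 1 CPM, 1157 still stood at 10 CPM or more in heat, and 0 fell to under 10 CPM in heat from 100 CPM or more in control.

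Genes of all abundances took part. Classes were set by the mean CPM over all 6 libraries, so that they do not depend on direction. Of 2207 tested genes below 1 CPM, 15.6% were called, 231 higher and 114 lower. Between 1 and 10 CPM, 21.0% of 6963 genes were called, 772 higher and 691 lower. Between 10 and 100 CPM, which held 53.3% of all calls, 23.7% of 11232 genes were called, 1520 higher and 1146 lower. Between 100 and 1000 CPM, 26.4% of 1945 genes were called, 326 higher and 188 lower. At 1000 CPM and above, 13 of 73 genes (17.8%) were called, 9 higher and 4 lower. The lead of higher over lower genes turned round between 1 and 10 CPM with limma-voom (561 higher, 659 lower) and with upper-quartile scaling (711 and 755), between 10 and 100 CPM with upper-quartile scaling (1350 and 1430), and below 1 CPM without heat 1 (89 and 92). The counts per class moved with single libraries. Without control 1, control 3 and heat 3, in this order, the calls numbered 164, 157 and 99 below 1 CPM, 798, 766 and 705 between 1 and 10 CPM, 1614, 1411 and 1381 between 10 and 100 CPM, 276, 272 and 278 between 100 and 1000 CPM, and 5, 6 and 7 at 1000 CPM and above. Below 1 CPM they also fell to 203 without control 2 and 181 without heat 1. At 1000 CPM and above DESeq2 called 25 genes.

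The precision of the fold change differed between the classes. The median standard error (SE) of the log2 fold change was 0.48 below 1 CPM, 0.26 between 1 and 10 CPM, 0.13 between 10 and 100 CPM, 0.13 between 100 and 1000 CPM and 0.17 above. Where the SE is large, only large changes can be called: below 1 CPM all 231 higher and all 114 lower genes changed by at least 2-fold. The larger fold changes of called genes of low abundance are therefore set in part by the threshold, and describe the calls only. On the log2 scale, the median for higher genes was 2.53 below 1 CPM and 1.46 between 1 and 10 CPM. In the classes above it was 0.80, 0.95 and 0.83, in rising order. For lower genes the medians were −1.90, −1.22, −0.62, −0.59 and −0.83 over the same classes. At equal depth 17.0% of genes were called between 1 and 10 CPM, 21.0% between 10 and 100 CPM, 25.4% between 100 and 1000 CPM and 17.8% above, while 8 genes below 1 CPM were left to test.

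**Figure D3:**
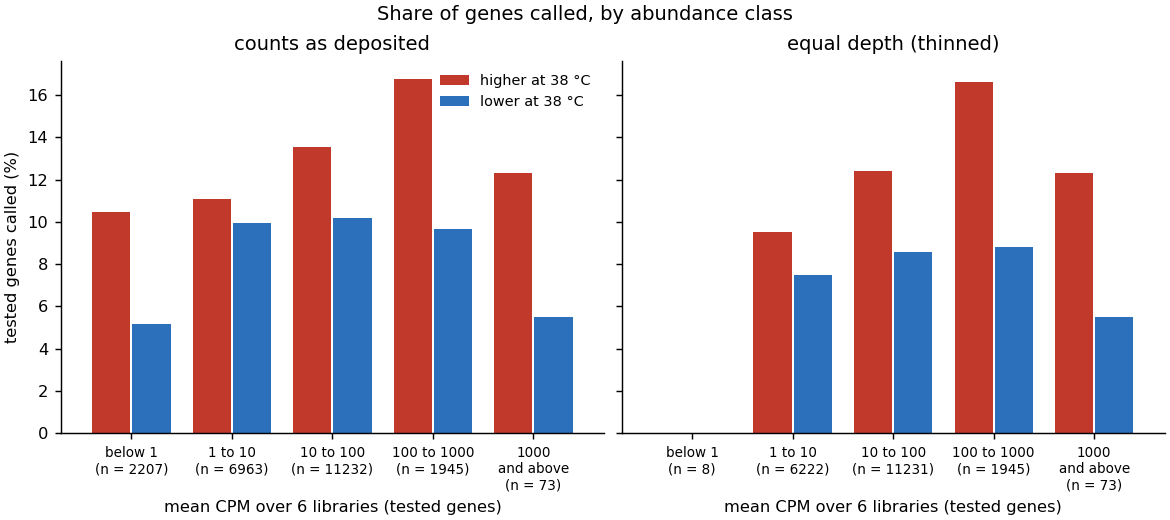
Percentage of tested genes called higher (red) and lower (blue) at 38 °C, by mean CPM over 6 libraries, for counts as deposited (left) and after thinning every library to the size of the smallest (right, with no bars below 1 CPM, where 8 genes were tested). Between 100 and 1000 CPM, 16.8% of genes were higher and 9.67% lower with counts as deposited, and 16.6% and 8.79% at equal depth.

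At 1000 CPM and above all called changes were under 4-fold, while some between 100 and 1000 CPM were larger. The 9 genes that rose in the class of 1000 CPM and above had heat means of 1279 to 3715 CPM and control means of 816 to 1245 CPM, with log2 fold changes of 0.50 to 1.92. The 4 that fell had heat means of 922 to 3340 CPM and control means of 1375 to 6474 CPM, with log2 fold changes of −1.22 to −0.58. The edgeR adjusted p-values of the 13 genes were 0.00532 to 0.0452. Between 100 and 1000 CPM, 150 genes rose by at least 2-fold, with log2 fold changes of up to 4.87, and 37 fell by as much, with log2 fold changes down to −3.67.

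The genes that rose held a larger part of the transcriptome in heat. Their summed share of gene counts was 21.5%, 17.0% and 18.8% in heat libraries 1 to 3, against 9.15%, 10.6% and 9.56% in control libraries 1 to 3. The genes that fell held 6.08%, 7.34% and 6.57% of gene counts in heat libraries and 12.2%, 12.0% and 11.6% in control libraries. Since these genes were chosen in the same libraries, the shares describe them and test nothing. A large part of the gain lay in few genes. The 100 genes with the largest gain in CPM, of 2858 that rose, made up 39.1% of the summed gain, and the largest single gene 2.65%. Of the summed loss of the 2143 genes that fell, 46.3% lay in 100 genes and 6.68% in 1 gene.

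Some measures of how counts were shared among genes overlapped between temperatures, and others did not. The 100 most abundant genes of each library held 17.3%, 17.1% and 18.5% of gene counts in heat libraries 1 to 3 and 17.0%, 17.3% and 18.1% in control libraries 1 to 3, with overlap between the groups (difference of 0.177 percentage points, exact permutation p = 0.6, two-sided, n = 3 each). This difference had the opposite sign without control 1 (−0.0575) and without heat 3 (−0.234). The 10 most abundant genes held less in heat, 4.46%, 4.37% and 4.77%, against 5.12%, 5.19% and 5.54% in control. The groups did not overlap, and the exact permutation p was 0.1, the smallest that 3 libraries against 3 can give. Genes of 100 to 1000 CPM held 42.1% to 43.2% of gene counts in heat and 40.6% to 41.3% in control, without overlap and with the same p. The shares of the other abundance classes overlapped. Of the 100 genes with the highest mean level, 81 were the same in heat and control.

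More genes were detected in the deeper heat libraries. Heat libraries had counts for 28919 to 30293 genes and control libraries for 24741 to 26722, whereas at equal depth the ranges were 25151 to 25399 and 24582 to 25267 and overlapped. With counts as deposited, 984 genes had counts in all heat libraries and 0 counts in all control libraries, and 5 genes the reverse. At equal depth these numbers were 168 and 68, so the imbalance was smaller there.

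With counts as deposited, libraries of the same temperature were more alike than libraries of different temperatures. The first principal component of log2 CPM held 66.4% of the variance and placed heat libraries 1 to 3 at 78.5, 36.9 and 62.4 and control libraries 1 to 3 at −71.8, −40.6 and −65.5. The second component held 12.1% and placed heat libraries 1 to 3 at 5.59, −13.7 and −5.65. Control libraries 1 to 3 stood there at −42.9, 42.4 and 14.3, so control 1 and control 2 lay far apart on it. The biological coefficient of variation, the relative spread beyond counting error, was 0.134 to 0.239 between heat libraries and 0.119 to 0.192 between control libraries, against 0.287 to 0.432 for pairs of a heat and a control library. The median SD of a gene within a group was 0.18 in heat and 0.21 in control on the log2 CPM scale, and 0.20 in heat and 0.19 in control at equal depth. The median difference between the group means was 0.30 in size, as deposited.

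Heat 2 showed the weakest response and heat 1 the strongest. Pairs of heat 2 with a control library had a coefficient of variation of 0.287 to 0.314, those of heat 3 one of 0.344 to 0.388, and those of heat 1 one of 0.376 to 0.432. Of the 2858 genes that rose, heat 1 was the highest heat library for 2107 (73.7%) and heat 2 the lowest for 2116 (74.0%). Above the control mean, these genes stood at a median of 1.29 in heat 1, 0.89 in heat 2 and 1.11 in heat 3 on the log2 scale. Of the 2143 genes that fell, heat 2 was the highest heat library for 1121 (52.3%), with median differences of −0.88 in heat 1, −0.70 in heat 2 and −0.81 in heat 3. The depths of heat 1, 2 and 3 were 39.0, 45.8 and 75.4 M, and the part of depth in this order was not tested. Among the genes that were not called, heat 1 was the highest heat library for 42.0% and the lowest for 39.2%. On the control side, control 2 was the highest control library for 52.6% of the genes that rose and for 34.5% of those not called. It was the lowest for 44.6% of the genes that fell and for 38.4% of those not called. By the coefficient of variation, control 3 lay slightly nearer to heat 2 (0.287) than control 2 did (0.295), while for heat 1 and heat 3 the nearest was control 2 (0.376 and 0.344). By the correlation of log2 CPM the order for heat 2 was the other way, with r = 0.957 for control 2 and 0.952 for control 3. Control 2 was also the control library with the most reads outside genes, 10.3%, and the part of these reads in its position was not tested.

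The response was then compared between pairs of 1 heat and 1 control library that had no library in common. Over all 18 choices of such pairs, the log2 differences of 22420 genes correlated with a median Pearson's r of 0.68 (range 0.52 to 0.76) and a median Spearman's rho of 0.62 (range 0.41 to 0.71). The sign was the same for a median of 72.1% of genes (range 62.7% to 77.2%). These are descriptions across genes, which are not independent replicates, and the pairs share the depth difference between the temperatures. The lowest value, r = 0.52, was found between heat 1 minus control 1 and heat 2 minus control 2, and the highest, r = 0.76, between heat 1 minus control 1 and heat 3 minus control 3. With all libraries at equal depth the median r was 0.72 over 19479 genes. Without thinning it was 0.74 over the 20223 genes with at least 1 CPM in 3 libraries. The parts of depth and of the genes kept were not tested.

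Calls were further read in libraries that had no part in them, with counts as deposited. Each pair left out had the same depth difference between the temperatures as the fit, so the same sign in both cannot tell heat from depth. Without 1 heat and 1 control library, in 9 choices, edgeR called between 715 and 4702 genes in the other 4 libraries. In the pair left out, 90.2% to 100% of the genes called higher were higher in heat, and 87.2% to 99.0% of the genes called lower were lower. Over all genes tested, 66.2% to 78.8% had the same sign in the pair left out as in the other libraries. When heat 3 and control 1 were left out, 686 of 686 genes called higher were higher in that pair. The lowest agreement came when heat 2 and control 2 were left out: 2535 of 2809 genes called higher and 1570 of 1800 called lower had the same sign there.

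The size of the response in the pair left out varied with the libraries. For the genes called higher, the median log2 difference in the pair left out was 0.64 to 2.18, against medians of 1.06 to 1.96 in the libraries of the fit. For the genes called lower it was −1.63 to −0.46, against −1.84 to −0.78. The smallest medians, 0.64 and −0.46, were those of heat 2 with control 2, and the largest, 2.18 and −1.63, those of heat 3 with control 3 and of heat 3 with control 1. The sets of called genes differ between these choices, so the medians are not those of 1 set of genes.

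**Figure D4:**
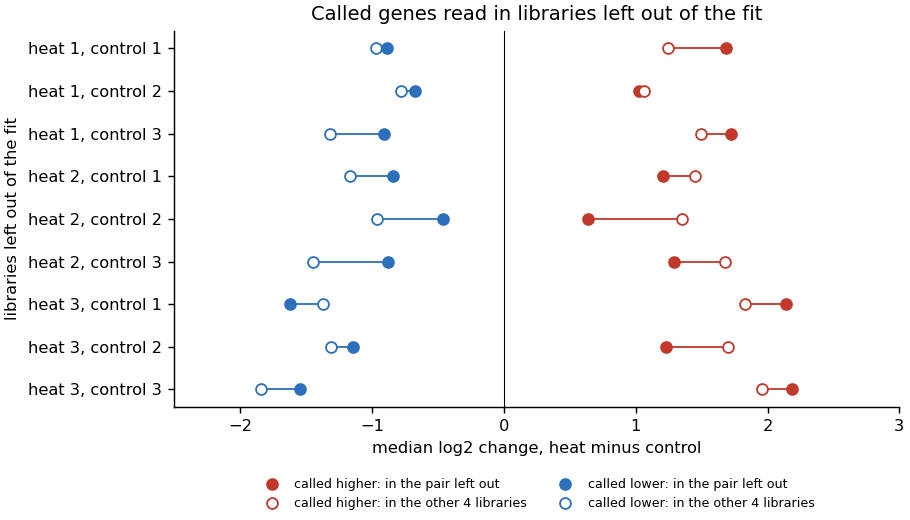
Median log2 change of heat minus control (horizontal axis) for genes called higher (red) and lower (blue) in fits of 4 libraries, with 1 row for each of the 9 choices of a heat and a control library left out. Open circles give the libraries of the fit and filled circles the pair left out; all filled circles lie on the side of 0 of their open circle, and those of heat 2 with control 2 lie nearest to 0, at 0.64 and −0.46.

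To show the response at single genes, 2 IDs were taken in each direction. They are those with the smallest p among called genes with a mean of at least 10 CPM, at least a 2-fold change and no overlap between the groups, a rule that 738 higher and 263 lower genes met. A small p joins the size of a change with the spread, so such genes are not those of the largest changes. Nor are they those of the closest replicates: their SE was 0.16 to 0.17, against a median of 0.13 for tested genes between 10 and 100 CPM. No function is known for them here.

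MH01g0094100 had 47.9, 45.7 and 59.9 CPM in heat libraries 1 to 3 and 3.81, 3.59 and 4.41 CPM in control libraries 1 to 3. The heat libraries lay far above the control libraries, and the spread within each group was small beside this gap. The means were 51.2 ± 7.62 CPM in heat and 3.93 ± 0.424 CPM in control (SD, n = 3 each), with a log2 fold change of 3.71 (SE 0.16, edgeR adjusted p = 0.000286). The control level of MH01g0094100 rested on 28, 56 and 36 counts. In size, this rise ranked 92 among the 2858 genes that rose.

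MH02g0624500 had 78.6, 59.3 and 66.8 CPM in heat libraries 1 to 3 and 7.61, 5.83 and 6.37 CPM in control libraries 1 to 3. Its highest heat library was heat 1 and its lowest was heat 2. Each of these places, taken alone, was also that of most genes that rose. The means were 68.3 ± 9.74 CPM in heat and 6.60 ± 0.913 CPM in control (SD, n = 3 each), with a log2 fold change of 3.39 (SE 0.16, edgeR adjusted p = 0.000286).

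MH09g0431200 had 4.11, 5.90 and 4.18 CPM in heat libraries 1 to 3 and 34.3, 38.4 and 36.6 CPM in control libraries 1 to 3. The highest value in heat was again that of heat 2, and no heat library came near the control libraries. The means were 4.73 ± 1.02 CPM in heat and 36.4 ± 2.08 CPM in control (SD, n = 3 each), with a log2 fold change of −2.95 (SE 0.17, edgeR adjusted p = 0.000308). In size, this fall ranked 33 among the 2143 genes that fell.

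MH01g0787900 had 4.30, 6.34 and 4.69 CPM in heat libraries 1 to 3 and 27.7, 23.4 and 25.6 CPM in control libraries 1 to 3. Heat 2 was the highest heat library and control 2 the lowest control library, so the gap between the groups was narrowest there. The means were 5.11 ± 1.08 CPM in heat and 25.6 ± 2.17 CPM in control (SD, n = 3 each), with a log2 fold change of −2.32 (SE 0.17, edgeR adjusted p = 0.000578). The calls of all 4 genes held in 16 of 16 alternative settings, with the least certain adjusted p, 0.0467, for MH01g0094100 in the model of all 12 libraries. As the 4 genes were chosen for their small p in the same libraries, this lends them no independent support.

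**Figure D5:**
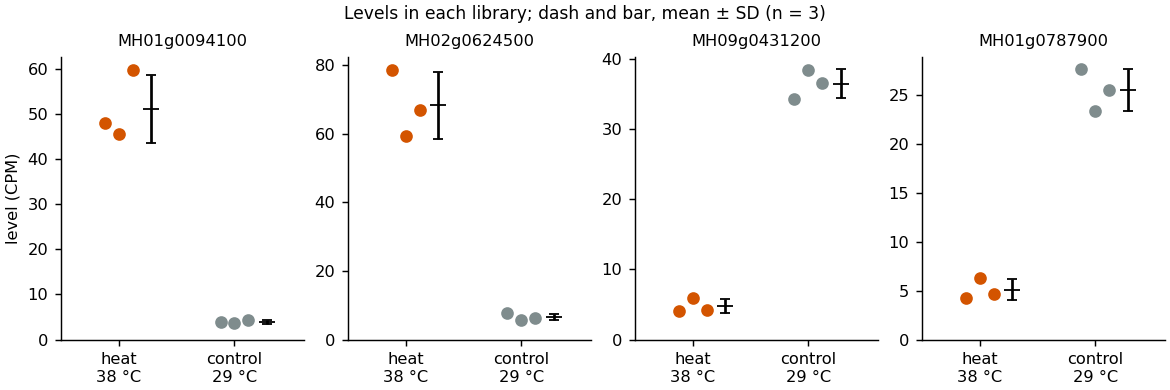
Level in CPM (vertical axis, from 0) of 2 genes that rose and 2 that fell, with 1 point for each library, heat at 38 °C left (orange) and control at 29 °C right (grey), and mean ± SD beside the points. MH01g0094100 lies between 45.7 and 59.9 CPM in heat and between 3.59 and 4.41 CPM in control, and MH09g0431200 between 4.11 and 5.90 CPM in heat and between 34.3 and 38.4 CPM in control.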

How the data were processed

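Spikelet RNA was sequenced as single-end reads, per the series' design text, from libraries made with an Illumina TruSeq RNA kit, per the labels' protocols. The deposited files, 1 for each library, hold whole-number read counts by gene, not normalized, which the authors made with Trimmomatic 0.33, HISAT2 2.05 and HTSeq 0.6.1, per the submitters' processing notes. The sources used here give neither their parameters nor the build or the strand setting. Without strand, overlapping antisense genes cannot be told apart, and genes with near-identical copies are uncertain, because reads with several alignments stood outside the gene counts. The 5 closing lines that name no gene were left out. Gene counts were 76.6% to 77.2% of reads in heat libraries and 75.0% to 80.1% in control libraries.

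The counts of the 6 libraries were fitted with edgeR 4.0.16 in R 4.3.3: genes kept by filterByExpr, TMM scaling, 1 mean per temperature, robust quasi-likelihood F-test with 4 residual degrees of freedom, Benjamini-Hochberg adjustment over 22420 genes, and calls at an adjusted p below 0.05. SE is the size of the log2 fold change over the square root of F. CPM are on scaled library sizes, and log2 CPM used a prior count of 2. Thinning was binomial. The test was checked on simulated counts, in which fewer genes changed than were called here, equally many up and down. The check therefore does not cover a response as large or as unequal in direction as this one. Alternatives were limma-voom (limma 3.58.1), DESeq2 1.42.0 on all listed genes, different scalings, filters and thresholds, all 12 libraries, a replicate block, equal depth, and leaving out each library. Named IDs follow the rule stated with them. Libraries, lists and tests, the 6-library fit included, were chosen with earlier results of these data known. The main fit did not pair libraries by replicate number. Deviations of same-numbered heat and control libraries correlated with r = −0.08, −0.31 and 0.11. With 3 libraries per group these values cannot decide whether the numbers pair them, and 2700 genes were called with a replicate block. The labels give 2 plants per library and no separate growth batch, so p-values measure the spread between these libraries. Gene counts were 39.0 to 75.4 M in heat and 7.08 to 15.0 M in control libraries, and bounds cover counting error only.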

Additional observations from a re-analysis of the deposited data

Results flagged for a closer look

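Reads aligned at more than 1 place, which stand outside the gene counts, took 5.00%, 5.11% and 5.34% of heat libraries 1 to 3 and 3.70%, 3.76% and 3.82% of control libraries 1 to 3. The heat mean of 5.15% ± 0.173 stood above the control mean of 3.76% ± 0.0583 (SD, n = 3 each) without overlap, and the exact permutation p was 0.1, the smallest possible. Which genes they came from was not tested. Reads that were not aligned, 10.3% to 10.5% in heat and 10.1% to 10.9% in control, overlapped between the temperatures.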

How the results depend on the processing

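The number of called genes, 5001, was 2646 with all 12 libraries, 2700 with a replicate block (1688 higher, 1012 lower) and 1748 at an adjusted p below 0.01, and 2470 to 4492 without any 1 library. DESeq2 called 5955 genes, limma-voom 4417. Calls with at least a 2-fold change, 2374, numbered 1344 with all 12 libraries, 1252 at the stricter threshold and 1629 to 2529 without any 1 library. The share of higher genes, 57.1%, was 55.4% with DESeq2, 54.3% with limma-voom, 50.3% with upper-quartile scaling, 59.8% with no filter, 62.5% with the replicate block, 59.1% at equal depth, 71.0% at the stricter threshold and 57.5% to 67.8% without any 1 library. The share of calls at 10 CPM or more, 63.9%, was 61.8% with no filter, 68.1% with a filter of 1 CPM in 3 libraries, 66.0% with the replicate block, 72.9% at equal depth, 70.7% at the stricter threshold and 64.4% to 67.5% without any 1 library. The median correlation of responses without a common library, 0.68, was 0.53 with no filter and 0.62 to 0.74 without any 1 library. The heat minus control difference in the share of the 100 most abundant genes, 0.177 percentage points, was −0.750 for the 10 most abundant, −0.0575 without control 1 and −0.234 without heat 3, within −0.234 to 0.501 over the libraries left out. The causes were not tested. At equal depth, 8 genes below 1 CPM were left to test.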

Other observations

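Read by the digits after MH in the IDs, which the files do not explain, calls were spread evenly: between 21.1% and 24.5% of tested genes were called for each of the numbers 1 to 12, and 52.8% to 61.9% of those calls were higher at 38 °C.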
